A study of Mus musculus and Rattus norvegicus with 24 samples.

Results

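The penumbra of the rat brain was examined 2 h after the middle cerebral artery had been blocked for good (pMCAO), a surgical model of stroke. The comparison used 6 of the 24 arrays of the series, those titled as rat MCAO at 2 h (n = 3) and rat sham at 2 h (n = 3), with 1 animal per array. Of the 36685 transcript clusters in the rat table, those with 1 gene symbol in the platform annotation were kept and the brightest cluster stood for each symbol, which gave 18166 genes. All values below are log2 signals, on which a difference of 1 is a 2-fold difference.

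The pMCAO animals were adult male Sprague-Dawley rats, 8 to 12 weeks old and weighing 270 to 300 g, in which a coated filament was pushed to the origin of the left middle cerebral artery and tied in place, so the artery stayed blocked. Sham animals of the same strain, sex and age had the same surgery under isoflurane with no occlusion, so both groups carry the anaesthetic and the wound. Tissue blocks of 3 by 3 mm came from the penumbra of pMCAO animals and from a like region on the operated side of sham animals, and each block holds many cell types. Rats with pMCAO or sham surgery sampled at 6 h, treated in the same way, and C57BL/6 male mice aged 8 to 10 weeks with the right artery occluded or sham surgery, sampled at 2 h, served as comparisons (n = 3 per group).

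The penumbra is the rim of tissue around an ischaemic core in which blood flow is too low for normal function while cells still hold their membrane potential for some time. Waves of depolarization pass through it, and calcium entry switches on immediate early genes, whose transcription needs no new protein. Among the genes that follow are those for heat shock proteins, chemokines and proteases that act on the matrix and on clots.

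Array medians over all clusters lay between 6.71 and 6.75 in pMCAO animals and between 6.67 and 6.74 in sham animals. On the first principal component, which carried 44.3% of the variance, pMCAO replicate 2 lay at 25.9, pMCAO replicates 1 and 3 at 1.63 and 2.33, and the sham arrays between -13.8 and -3.17. The mean log2 signal of 10 pan-neuronal markers was 11.75 to 11.78 in pMCAO animals and 11.76 to 11.83 in sham animals, and that of 10 astrocyte markers 10 to 10.09 in pMCAO animals and 10.11 to 10.2 in sham animals. Transthyretin (Ttr), which marks choroid plexus, was at 10.03, 6.94 and 6.65 in pMCAO animals and at 6.88, 6.93 and 11.03 in sham animals, so pMCAO replicate 1 and sham replicate 3 stood apart in this gene without regard to surgery.

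After 2 h of occlusion, few genes had moved beyond the spread between animals. Fos and Jun, which encode the subunits of the AP-1 transcription factor, Ccn1, a matrix-associated signalling protein, Plat, the tissue plasminogen activator that starts clot lysis, and Tnfrsf11b, a secreted decoy receptor for the cytokine RANKL, rose together with Qrfprl, a gene named for its likeness to a neuropeptide receptor. Fkbp5 and Zbtb16, both known targets of the glucocorticoid receptor, Hes1, a repressor that Notch signalling switches on, Fam43a and the microRNA genes Mir186 and Mir376a fell. In a limma fit over the 12 rat arrays with Benjamini-Hochberg adjustment, 12 of 18166 genes passed an adjusted p of 0.05 (0.0661%), 6 up (0.033%) and 6 down (0.033%). At an unadjusted p under 0.05, 1287 genes differed (7.08%), the background for the counts at that threshold given below. Without sham replicate 3, none passed and 822 had an unadjusted p under 0.05, and without sham replicate 2, 6 passed. Besides the fit without sham replicate 3, Ccn1, Tnfrsf11b, Qrfprl, Fkbp5 and Mir376a kept their calls in the other 5 leave-one-out fits of the 2 h arrays. Of the 6 fits, Jun kept its call in 4, Fos, Plat and Fam43a in 3, Hes1 in 2, Mir186 in 1 and Zbtb16 in 0. Across all genes, every pMCAO animal lay above every sham animal in 1007 (5.54%) and below in 1375 (7.57%), the background for the counts of separated genes given below. The gene lists below were chosen with earlier results of these data known, so their shares describe these animals and are not independent tests. With each array centred on its median the split was 1441 above and 1066 below. In a tissue block, fewer cells of a type and less RNA per cell cannot be told apart.

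**Figure D1:**
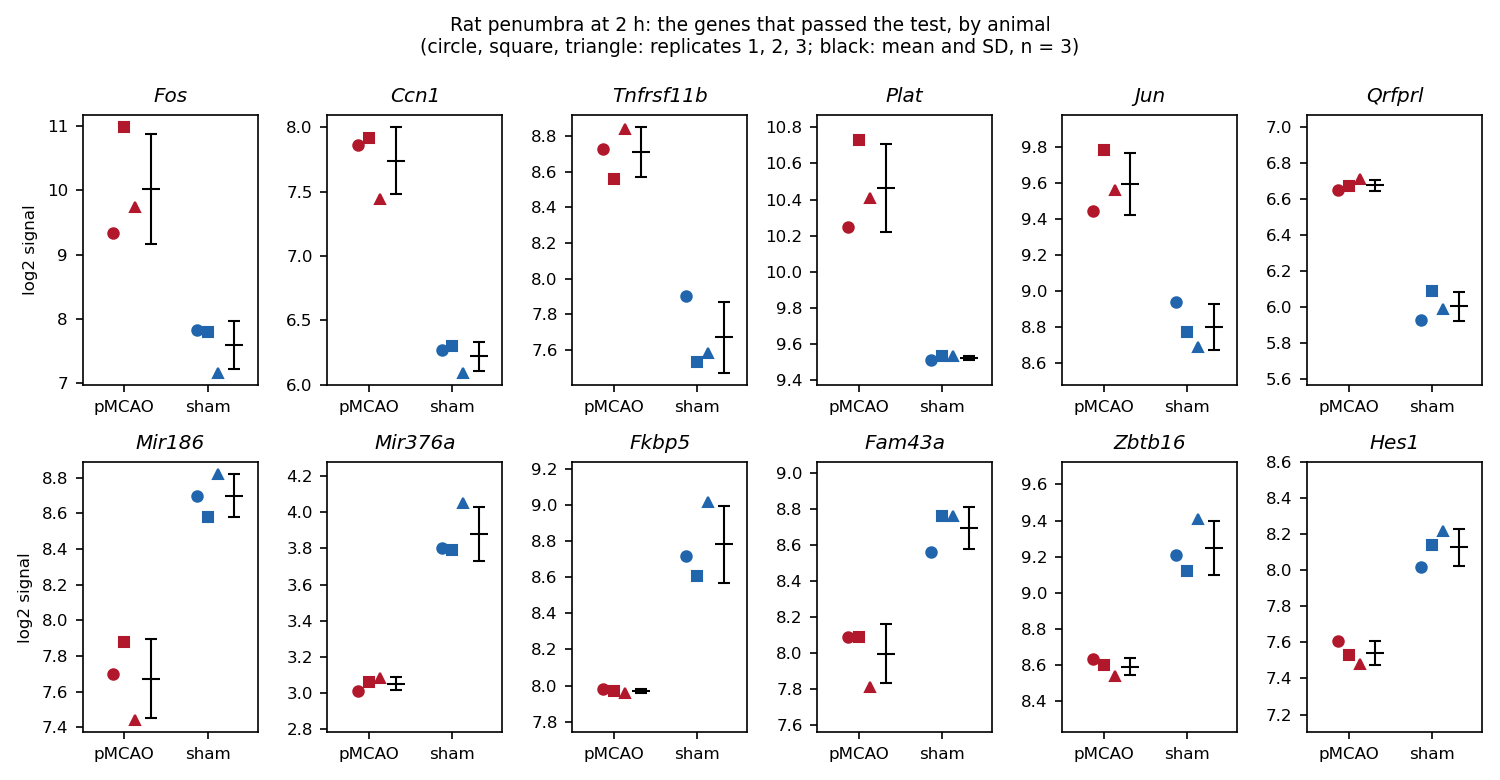
Log2 signal (vertical axis, scaled per gene) of the 12 genes that passed the test, for each of 3 pMCAO animals (red, left) and 3 sham animals (blue, right), with the mean and SD in black. In every panel the groups are separate; Fos has the widest spread, with pMCAO replicate 2 at 10.99, and Fkbp5 the narrowest among pMCAO animals.

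Fos had a log2 signal of 9.33, 10.99 and 9.75 in pMCAO animals, against 7.82, 7.79 and 7.15 in sham animals. The lowest pMCAO animal was well above the highest sham animal, and the difference was 2.44 ± 0.34 (SE; limma adjusted p = 0.0182). Jun stood at 9.44, 9.78 and 9.56 in pMCAO animals and at 8.94, 8.77 and 8.69 in sham animals, a difference of 0.79 ± 0.10 (limma adjusted p = 0.00897). With all clusters of a symbol averaged in place of the brightest, the Jun difference was 0.48 and did not pass (limma adjusted p = 0.0609).

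The largest difference on the whole array belonged to Npas4, a neuron-specific transcription factor induced by calcium entry, and it did not pass. Its signal was 8.73, 12.74 and 10.92 in pMCAO animals, against 7.44, 6.94 and 6.87 in sham animals, a difference of 3.71 ± 0.69 (limma adjusted p = 0.102). All 3 occluded animals were above all shams, yet they differed among themselves by about as much as the groups did. With each 2 h array left out in turn the difference ran from 2.74 to 4.75 with limma adjusted p-values up to 0.491, and it passed in 1 of the 6 fits, that without pMCAO replicate 1, the lowest of the 3 (adjusted p = 0.00176).

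Other immediate early factors lay in between. Fosb, a partner of Jun, read 8.30, 9.20 and 7.98 in pMCAO animals and 7.01, 7.14 and 7.05 in sham animals (1.43 ± 0.26, limma adjusted p = 0.0942). Nr4a3, an orphan nuclear receptor, read 9.18, 9.59 and 8.55 in pMCAO animals and 7.93, 7.72 and 7.89 in sham animals (1.26 ± 0.23, limma adjusted p = 0.102). Nr4a1, from the same family, differed by 1.52 ± 0.33 and Junb by 1.30 ± 0.29, and Klf6, a zinc finger factor, by 0.66 ± 0.12. The groups did not overlap for any of these 5 genes, and none passed the adjusted threshold.

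Of 27 measured immediate early transcription factors, 2 rose and none fell. Every pMCAO animal was above every sham animal in 15 of them (55.6%) and below in none, against 5.54% and 7.57% of all genes, and the median difference was 0.48, against -0.00 over all genes. Replicate 2 was the highest of the pMCAO animals in 17 of the 27 (63%), against 35.9% of all genes, and replicate 3 the lowest in 16. The list's median was 0.415 without replicate 2.

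**Figure D2:**
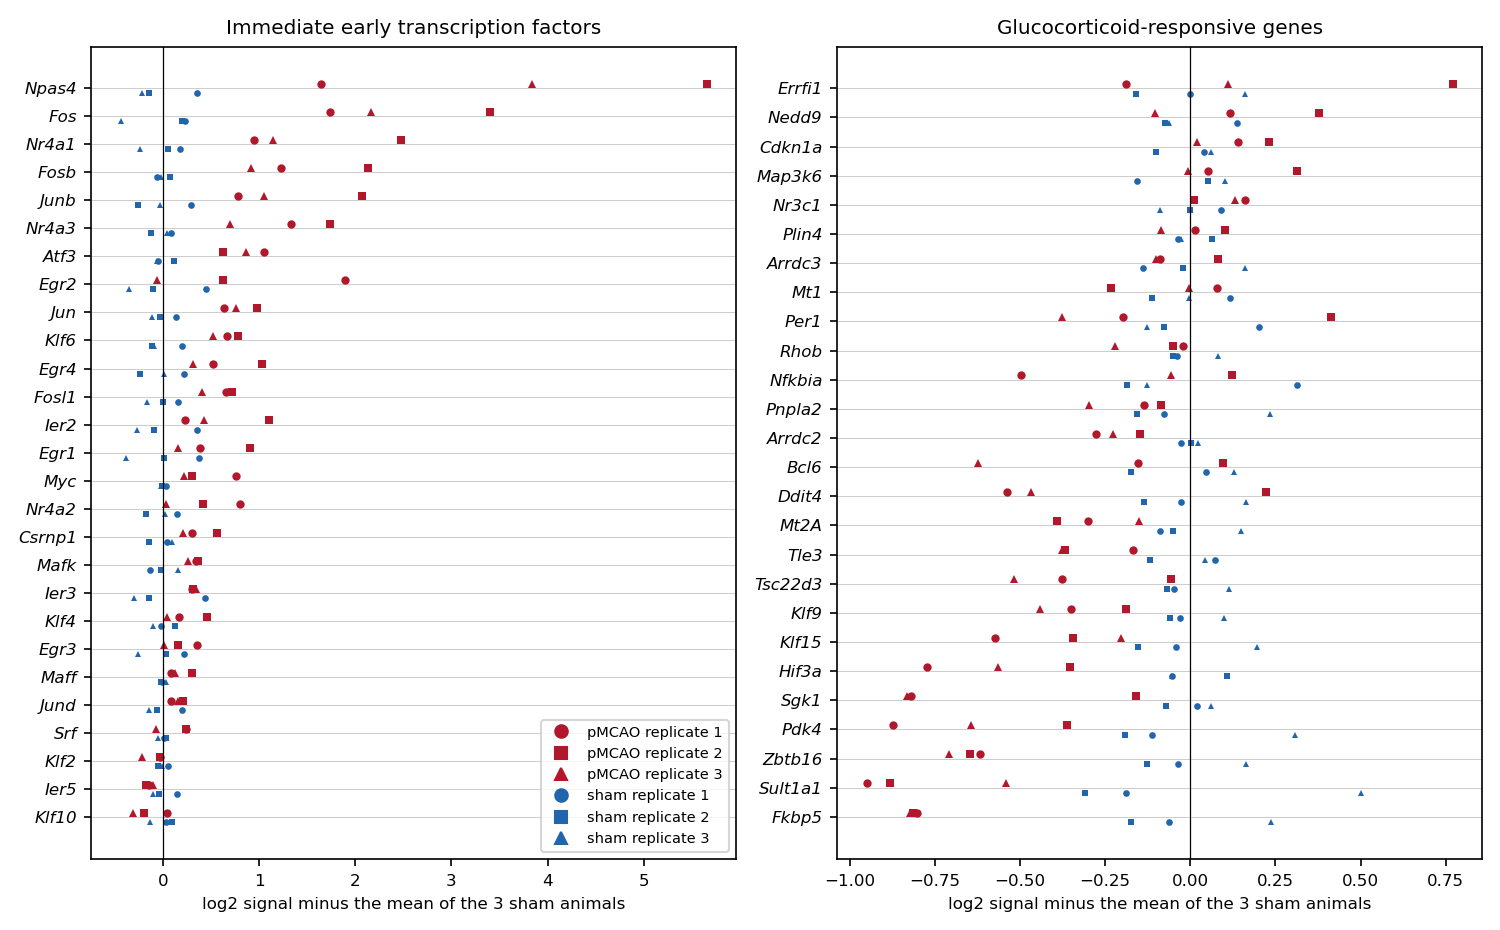
Log2 signal of each animal minus the mean of the 3 sham animals for the 27 immediate early transcription factors (left panel) and the 26 glucocorticoid-responsive genes (right panel), pMCAO animals in red and sham animals in blue, with circles, squares and triangles for replicates 1, 2 and 3. Npas4 runs from under 2 to over 5 among the pMCAO animals, and Fkbp5, at the foot of the right panel, has its 3 pMCAO animals at nearly 1 value.

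Genes that act downstream of neuronal activity showed smaller differences. In the list of 24 activity-regulated effectors, limma called none (7 had an unadjusted p under 0.05, all higher), 8 lay above every sham animal and 1 below, and the median was 0.33. Sik1, a kinase induced by cAMP, read 8.35, 9.18 and 8.60 in pMCAO animals and 7.98, 7.70 and 7.89 in sham animals (0.85 ± 0.21). Ptgs2, the inducible cyclooxygenase, read 10.61, 10.85 and 9.80 in pMCAO animals and 9.87, 9.39 and 9.13 in sham animals, so pMCAO replicate 3 lay within the sham range. Among 14 feedback genes of the MAP kinase cascade none passed (4 at an unadjusted p under 0.05) and 6 lay above every sham animal. Dusp6, the phosphatase that switches off ERK, differed by 0.77 ± 0.20 and Dusp1, which acts on several MAP kinases, by 0.86 ± 0.28.

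Promoter sequence of the rat was not used here, so the mouse windows of Fos and Ccn1, the 2 largest rises among the 6 genes that passed, are shown from RefSeq on GRCm38.p6, each 250 bases before to 50 after the start. Capitals mark TATAAA and TGACG, the core of a cAMP response element, on either strand. Fos lies at chr12:85473640-85473939 on the plus strand and Ccn1 at chr3:145649936-145650235 on the minus strand.
Fos: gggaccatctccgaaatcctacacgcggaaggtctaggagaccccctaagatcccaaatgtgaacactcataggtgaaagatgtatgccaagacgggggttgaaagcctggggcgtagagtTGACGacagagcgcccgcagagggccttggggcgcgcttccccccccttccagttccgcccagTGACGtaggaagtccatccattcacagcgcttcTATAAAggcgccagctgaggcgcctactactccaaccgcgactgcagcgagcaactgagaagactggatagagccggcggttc
Ccn1: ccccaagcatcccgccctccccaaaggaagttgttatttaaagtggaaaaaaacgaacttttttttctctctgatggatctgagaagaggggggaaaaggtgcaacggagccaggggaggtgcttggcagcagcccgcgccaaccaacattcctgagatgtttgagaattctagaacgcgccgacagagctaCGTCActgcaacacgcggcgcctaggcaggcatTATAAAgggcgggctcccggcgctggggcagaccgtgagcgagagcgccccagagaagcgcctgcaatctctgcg

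The Fos window holds 1 TATAAA and 2 TGACG, and the Ccn1 window 1 of each. Of 32851 mouse promoter windows of this length, 13.6% hold TATAAA and 20.8% hold TGACG. The full element TGACGTCA (1.8% of windows) and the AP-1 site TGANTCA (7.8%) are in neither window. These are matches of letters in the mouse sequence.

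Ccn1 read 7.86, 7.92 and 7.44 in pMCAO animals and 6.27, 6.30 and 6.09 in sham animals. Its groups were far apart for the spread within them, with a difference of 1.52 ± 0.18 (limma adjusted p = 0.00897). Plat read 10.25, 10.73 and 10.41 in pMCAO animals and 9.51, 9.53 and 9.53 in sham animals, which were almost equal to each other. The difference was 0.94 ± 0.12 (limma adjusted p = 0.0128). Tnfrsf11b read 8.73, 8.56 and 8.84 in pMCAO animals and 7.90, 7.53 and 7.58 in sham animals, a difference of 1.04 ± 0.11 (limma adjusted p = 0.00897). Qrfprl read 6.65, 6.67 and 6.71 in pMCAO animals, against 5.93, 6.09 and 5.99 in sham animals (0.67 ± 0.08, limma adjusted p = 0.00897).

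Among 27 genes of matrix, fibrinolysis and vascular growth, Ccn1 and Plat rose, none fell, 10 lay above every sham animal (37%) and 1 below, and the median was 0.11. Adamts9 and Adamts1, proteases that cut proteoglycans, differed by 0.89 ± 0.18 and 0.66 ± 0.15. Timp1, an inhibitor of matrix metalloproteinases, read 7.40, 7.44 and 7.40 in pMCAO animals and 6.81, 6.43 and 6.53 in sham animals (0.82 ± 0.25). None of these 3 passed. Of 19 TNF receptors, Tnfrsf11b alone rose and none fell, and 3 lay above every sham animal. Tnfrsf11a, the signalling receptor for the same ligand, read 7.80, 7.87 and 7.48 in pMCAO animals and 8.06, 8.02 and 8.49 in sham animals (-0.47 ± 0.13, limma adjusted p = 0.41).

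Among chemokines, Ccl3, which draws monocytes, came closest to the threshold. It read 6.96, 8.65 and 8.54 in pMCAO animals and 5.76, 5.86 and 5.68 in sham animals, a difference of 2.28 ± 0.36 (limma adjusted p = 0.0504). All occluded animals were above all shams, with replicate 1 the lowest. Of 30 cytokines and chemokines limma called none (6 at an unadjusted p under 0.05, all higher) and 8 lay above every sham animal (26.7%). Il1rn, the natural antagonist of the interleukin-1 receptor, differed by 0.45 ± 0.12, Il1b by 0.41 ± 0.13 and Ccl4 by 0.79 ± 0.22. In 23 genes for NF-kB feedback, leukocyte adhesion and innate sensors none passed (2 at an unadjusted p under 0.05), and 9 lay above every sham animal (39.1%), with Rel, an NF-kB subunit, at 0.53 ± 0.13.

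Among the pathway lists, that of heat shock genes had the highest share above the shams, with 14 of 24 above every sham animal (58.3%) and 1 below, though its median was 0.14 and limma called none (11 at an unadjusted p under 0.05, 10 of them higher). Hspb1, a small heat shock protein, read 7.56, 6.51 and 7.44 in pMCAO animals and 5.89, 6.08 and 5.80 in sham animals (1.25 ± 0.21, limma adjusted p = 0.0655), and here replicate 2 was the lowest of the pMCAO animals. Dnajb1, a co-chaperone of Hsp70, read 8.64, 9.08 and 8.96 in pMCAO animals and 8.35, 8.08 and 8.15 in sham animals (0.70 ± 0.20). Hspe1, the mitochondrial co-chaperonin, differed by 0.25 ± 0.06.

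Genes of other stress routes were mostly within the spread. Among 21 genes of the unfolded protein and integrated stress responses none passed (3 at an unadjusted p under 0.05), 2 lay above every sham animal and the median was 0.02. Ppp1r15a, which lets translation resume after stress, differed by 0.72 ± 0.13 (limma adjusted p = 0.0942), and Psat1, an enzyme of serine synthesis, by -0.55 ± 0.11. Of 23 genes of hypoxia and glycolysis none passed (6 at an unadjusted p under 0.05), and 3 lay above and 3 below every sham animal. P4ha1, a collagen prolyl hydroxylase, read 9.66, 9.88 and 9.70 in pMCAO animals and 9.21, 9.09 and 9.07 in sham animals (0.62 ± 0.12, limma adjusted p = 0.102). Vegfa, the endothelial growth factor, differed by 0.27 ± 0.12. Hmox1, the haem-degrading enzyme, read 7.37, 6.77 and 7.46 in pMCAO animals and 6.42, 6.40 and 6.50 in sham animals (0.76 ± 0.17).

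**Figure D3:**
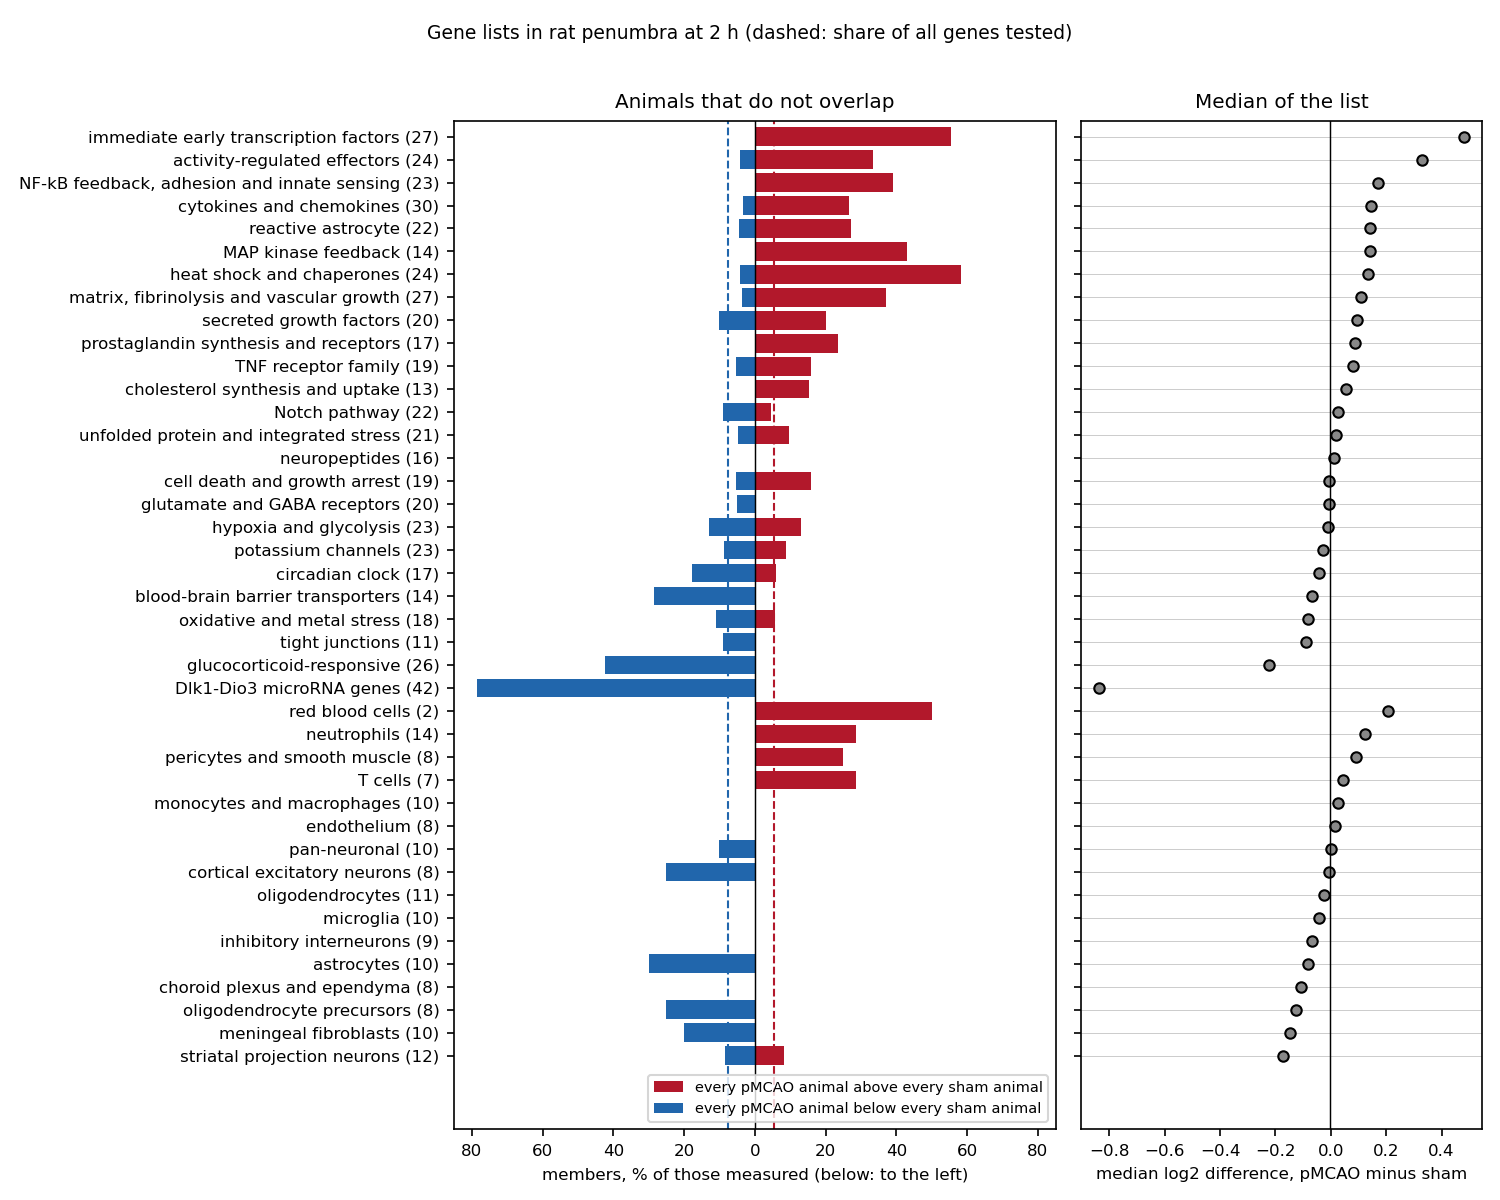
Left: percent of each list's measured members (number in brackets) with every pMCAO animal above (red, right of 0) or below (blue, left of 0) every sham animal, with dashed lines at the 5.54% and 7.57% of all genes. Right: median log2 difference, pMCAO minus sham; pathway lists stand above cell type lists, and the immediate early list (0.48) and the Dlk1-Dio3 microRNA genes (-0.84) lie at the 2 ends.

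Fkbp5, a co-chaperone that dampens the glucocorticoid receptor, read 7.98, 7.97 and 7.96 in pMCAO animals, against 8.72, 8.61 and 9.02 in sham animals. The pMCAO animals were nearly equal and all below the shams, and the difference was -0.81 ± 0.10 (limma adjusted p = 0.00897). Zbtb16, a zinc finger repressor, read 8.63, 8.60 and 8.54 in pMCAO animals and 9.21, 9.12 and 9.41 in sham animals (-0.66 ± 0.10, limma adjusted p = 0.0249). Its call was lost when any 1 of the 6 arrays at 2 h was left out (adjusted p 0.0559 to 0.149), while that of Fkbp5 was lost in 1 of the 6 fits.

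In the list of 26 glucocorticoid-responsive genes these 2 fell and none rose. No member lay above every sham animal and 11 lay below (42.3%, against 7.57% of all genes), with a median of -0.22. This list was chosen with earlier results of these data known. Sgk1, a kinase that regulates ion transport, read 9.85, 10.51 and 9.84 in pMCAO animals and 10.69, 10.60 and 10.73 in sham animals (-0.61 ± 0.16, limma adjusted p = 0.351). Sult1a1, a phenol sulfotransferase, read 6.87, 6.94 and 7.28 in pMCAO animals and 7.63, 7.51 and 8.32 in sham animals (-0.79 ± 0.19). Hif3a, a member of the hypoxia-inducible factor family, differed by -0.56 ± 0.14. The list's mean signal was 8.44, 8.66 and 8.44 in pMCAO animals and 8.75, 8.66 and 8.85 in sham animals, so over the whole list pMCAO replicate 2 reached the lowest sham. Replicate 2 was the highest of the pMCAO animals in 17 of the 26 (65.4%).

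Hes1 read 7.61, 7.53 and 7.48 in pMCAO animals and 8.02, 8.14 and 8.22 in sham animals, a difference of -0.59 ± 0.08 (limma adjusted p = 0.0165). It was the sole change among 22 Notch pathway genes, of which 1 lay above and 2 below every sham animal, and the list's median was 0.03. Hes5, a second Notch target, read 6.56, 6.83 and 6.61 in pMCAO animals and 6.42, 6.66 and 6.42 in sham animals (0.17 ± 0.09). Fam43a read 8.09, 8.09 and 7.81 in pMCAO animals and 8.56, 8.76 and 8.76 in sham animals (-0.70 ± 0.10, limma adjusted p = 0.0182).

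Among 14 transporters of the blood-brain barrier none passed (4 at an unadjusted p under 0.05, all lower), and 4 lay below every sham animal (28.6%). Abcg2, an efflux pump of brain endothelium, read 5.36, 6.18 and 6.45 in pMCAO animals and 7.20, 7.04 and 6.87 in sham animals (-1.04 ± 0.23, limma adjusted p = 0.196). Gjb6, an astrocyte gap junction protein, read 8.35, 8.73 and 8.74 in pMCAO animals and 8.99, 9.23 and 9.28 in sham animals (-0.56 ± 0.12, limma adjusted p = 0.164). Outside the microRNA genes, the lowest difference was that of Rpe65, a retinoid isomerase, at 6.76, 6.35 and 6.05 in pMCAO animals and 7.59, 7.55 and 8.28 in sham animals (-1.42 ± 0.38, limma adjusted p = 0.369).

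In 16 cell type lists limma called none of 144 genes (15 at an unadjusted p under 0.05), and medians ran from -0.17 in striatal projection neurons to 0.205 in the 2 red cell genes. For microglia (10 genes) the median was -0.04, for endothelium (8 genes) 0.01 and for monocytes and macrophages (10 genes) 0.025 (-0.02 under quantile normalization), with no gene separated in any of these 3. Other lists had members separated beyond the share of all genes, though on few genes. Every pMCAO animal was below every sham animal in 3 of 10 astrocyte markers, 2 of 8 of cortical excitatory neurons, 2 of 8 of oligodendrocyte precursors and 2 of 10 of meningeal fibroblasts, and above in 2 of 8 of pericytes and smooth muscle and 2 of 7 of T cells. Of 14 neutrophil markers 4 lay above every sham animal (28.6%), none below, and 3 had an unadjusted p under 0.05. Mmp8, a collagenase of neutrophil granules, read 6.52, 6.60 and 7.25 in pMCAO animals and 5.92, 5.97 and 5.55 in sham animals (0.98 ± 0.26, limma adjusted p = 0.36). S100a9, a calcium-binding protein of the same cells, read 6.37, 6.50 and 7.11 in pMCAO animals and 5.79, 5.95 and 6.06 in sham animals (0.73 ± 0.20). The list's mean signal was 5.85, 5.94 and 6.00 in pMCAO animals, against 5.68, 5.73 and 5.63 in sham animals. The part of these cells in the chemokine and matrix differences was not tested.

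Of the 1375 genes below every sham animal, 96 were microRNA genes, which were 26.4% of the 363 measured, against 7.57% of all genes. MicroRNAs are short RNAs cut from hairpins that pair with messenger RNAs through their seed, bases 2 to 8, and dampen them. Many brain microRNAs come from the imprinted Dlk1-Dio3 domain, where a long row of hairpins is transcribed from the maternal copy. Whole-transcript arrays place probes within these short genes, and the tables do not separate primary transcript, hairpin and mature form. Per the labels RNA was taken with a silica column kit, a type known to hold longer RNAs better than short ones.

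Mir376a, a member of that domain, read 3.01, 3.06 and 3.08 in pMCAO animals, against 3.80, 3.79 and 4.05 in sham animals, a difference of -0.83 ± 0.10 (limma adjusted p = 0.00897). These are dim signals, near the array minima of 2.57 to 2.73. Mir186, which lies within the gene Zranb2, was bright, at 7.70, 7.88 and 7.44 in pMCAO animals and 8.70, 8.58 and 8.82 in sham animals (-1.03 ± 0.15, limma adjusted p = 0.0249). Zranb2 itself, looked up after its values were seen, read 10.36, 10.40 and 10.44 in pMCAO animals and 10.28, 10.37 and 10.40 in sham animals.

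Rat microRNA sequences were not used here. Of the 363 rat microRNA genes, 242 have a mature sequence under the same symbol in the mouse RefSeq table (GRCm38.p6), and a selection is shown with the seed in capitals. It holds the 2 genes that fell, 4 more domain genes of which Mir300 and Mir154 are the lowest and Mir379 and Mir411 share a seed, and 4 low hairpins from outside the domain.
mmu-miR-376a-5p: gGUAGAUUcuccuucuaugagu
mmu-miR-376a-3p: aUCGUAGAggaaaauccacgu
mmu-miR-186-5p: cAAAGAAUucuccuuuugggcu
mmu-miR-186-3p: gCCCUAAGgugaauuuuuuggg
mmu-miR-300-3p: uAUGCAAGggcaagcucucuuc
mmu-miR-154-5p: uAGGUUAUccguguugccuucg
mmu-miR-154-3p: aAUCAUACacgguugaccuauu
mmu-miR-379-3p: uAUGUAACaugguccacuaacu
mmu-miR-411-3p: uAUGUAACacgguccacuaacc
mmu-miR-374b-5p: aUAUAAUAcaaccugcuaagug
mmu-miR-421-5p: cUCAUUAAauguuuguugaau
mmu-miR-27b-3p: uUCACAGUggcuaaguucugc
mmu-miR-29c-3p: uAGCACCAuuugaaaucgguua

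The 3p arms of miR-379 and miR-411 share the seed AUGUAAC, and no other seed is shared among those shown. Mir379 differed by -1.65 ± 0.35 and Mir411 by -1.06 ± 0.41. Among matched genes with every pMCAO animal below every sham animal, 7 seeds occur in more than 1 gene, GAGGUAG of the let-7 family in 3. Of the 42 domain genes, 39 have a mouse hairpin under the same symbol. All 39 lie on mouse chromosome 12 (GRCm38.p6) between 109563692 and 109743795, a span of 180.1 kb. Mir374b and Mir421 are neighbours on chromosome X, 63 bases apart, and Mir23b and Mir27b on chromosome 13, 154 bases apart.

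Of the 42 measured Dlk1-Dio3 microRNA genes, 1 fell and none rose. Every pMCAO animal was below every sham animal in 33 of them (78.6%, against 7.57% of all genes) and above in none. Their median difference was -0.84, against -0.00 over all genes, and they ran from -2.21 to 0.21. This list too was chosen with earlier results of these data known, so its share is a description. Mir300, the lowest, read 4.28, 4.47 and 4.10 in pMCAO animals and 6.73, 6.15 and 6.59 in sham animals (-2.21 ± 0.51, limma adjusted p = 0.234). Mir154 read 5.65, 5.05 and 4.88 in pMCAO animals and 7.39, 7.22 and 7.11 in sham animals (-2.05 ± 0.41, limma adjusted p = 0.142). The groups of both genes were far apart, while the standard error came from all 12 rat arrays.

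The mean signal of the 42 genes was 5.82, 5.60 and 5.57 in pMCAO animals and 6.65, 6.55 and 6.51 in sham animals. Of the long transcripts of the domain, only Meg3, Dlk1 and Dio3 were looked up, after their values were seen. These did not share the difference, and other long RNAs of the domain, among them any that carry the hairpins, were not examined. Meg3, the maternal long noncoding RNA, read 8.88, 8.87 and 8.90 in pMCAO animals and 8.79, 8.96 and 8.77 in sham animals, and Dlk1 and Dio3 differed by 0.01 ± 0.09 and 0.05 ± 0.09.

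Outside this domain 63 of 321 microRNA genes lay below every sham animal (19.6%) and 17 above (5.3%), with a median of -0.00, so a minority was low. The lowest, named after their values were seen, were Mir181b1 and Mir374b. Mir181b1 read 4.62, 4.75 and 4.06 in pMCAO animals and 7.26, 7.14 and 6.94 in sham animals (-2.64 ± 0.42, limma adjusted p = 0.0504), the lowest difference among the genes tested. Mir374b read 4.55, 3.74 and 4.26 in pMCAO animals and 6.74, 6.41 and 6.62 in sham animals (-2.41 ± 0.44), and its neighbour Mir421 differed by -2.10 ± 0.54. Mir27b and Mir23b differed by -1.84 ± 0.51 and -0.78 ± 0.35, and Mir29c by -1.57 ± 0.42.

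These differences stood out more when the 6 arrays at 2 h were fitted alone. That fit called 44 genes (0.242%), 10 up (0.055%) and 34 down (0.187%), and 30 of the 44 were microRNA genes, 17 of them in the Dlk1-Dio3 list. Of the 12 genes called with 12 arrays, 10 were among the 44. With microRNA genes left out, the 6-array fit called none (1410 at an unadjusted p under 0.05) and the 12-array fit called 10. The spread of the domain's genes was wider at 6 h. Their median within-group SD was 0.235 in pMCAO and 0.144 in sham animals at 2 h, and 0.656 in pMCAO and 0.167 in sham animals at 6 h. At 6 h, pMCAO replicate 3 was above replicates 1 and 2 in 41 of the 42 genes. Relative to the mean of all genes its 42-gene mean was -0.65, while pMCAO replicates 1 and 2 were at -1.67 and -1.92 and the 6 h shams at -0.75, -0.76 and -0.87. That animal was thus above the 6 h shams in these genes. Its Fos signal was 10.80, against 7.40, 7.31 and 6.93 in the 6 h shams. Without it, the 12-array fit called 58 genes at 2 h, 45 of them down, and without 6 h pMCAO replicate 2 it called 35.

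**Figure D4:**
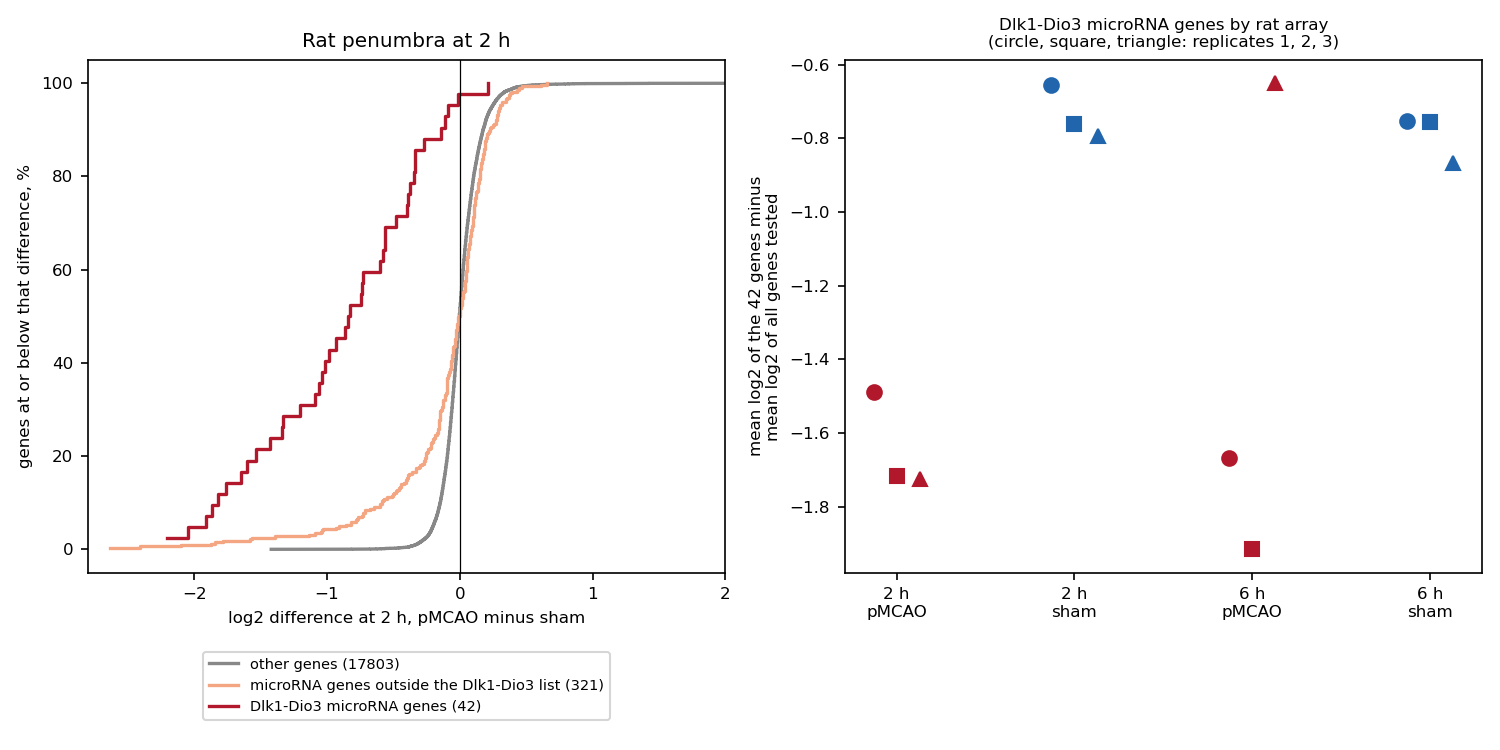
Left: cumulative percent of genes by log2 difference at 2 h, pMCAO minus sham, for 17803 other genes (grey), 321 microRNA genes outside the Dlk1-Dio3 list (orange) and the 42 listed (red), whose curve lies to the left with a median of -0.84; the axis ends at 2, short of Npas4, Fos and Ccl3. Right: mean log2 signal of the 42 genes minus the mean of all genes, for each rat array (circle, square and triangle: replicates 1, 2 and 3); pMCAO arrays at 2 h lie between -1.72 and -1.49, sham arrays between -0.79 and -0.655, and pMCAO replicate 3 at 6 h lies just above the 6 h shams.

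In hairpins matched to mouse, the median GC content was 45.3% for 72 genes with every pMCAO animal below every sham animal, against 50.5% for 151 genes that overlapped. The only other short RNA gene of the rat table looked up, Rn5-8s for the 5.8S ribosomal RNA, read 12.77, 12.69 and 12.89 in pMCAO animals and 12.84, 12.83 and 12.76 in sham animals. These signals are near the array maxima of 13.68 to 13.78, where a difference may be hard to see. In mouse at 2 h, 47 small nucleolar RNA genes of the C/D box type had a median difference of 0.01. Of these, 1 lay above and 1 below every sham animal, with none called by limma and none at an unadjusted p under 0.05. Among 26 small nucleolar RNA genes of the H/ACA box type in mouse at 2 h, limma called none and 3 had an unadjusted p under 0.05. Their median was 0.07, in a range of -0.29 to 0.61, with 2 above and 1 below every sham animal. The part of RNA size or recovery in the microRNA differences was not tested in rat or in mouse.

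The occlusion effect at 6 h was compared with that at 2 h by the difference of the contrasts. The log2 levels of the 6 h and 2 h arrays are not on the same scale. The difference of contrasts removes only an added shift per gene. An unlike range of signal in the 2 sets of arrays would alter the effects, and was not tested. At 6 h, 1175 genes passed (6.47%), 517 up (2.85%) and 658 down (3.62%), and every pMCAO animal lay above every sham animal in 9.73% of genes and below in 14.8%. The effect differed between times for 42 genes (0.231%), being higher at 6 h in 30 (0.165%) and lower in 12 (0.0661%). The number ranged from 11, without 2 h pMCAO replicate 3, 2 h sham replicate 1 or 6 h sham replicate 2, to 140 without 6 h pMCAO replicate 2. The count was 12 to 23 without any other array except 2 h pMCAO replicate 2 (55) and 6 h pMCAO replicate 3 (48). Of the 12 genes called at 2 h, 6 had an effect that differed. The 12 were picked by the same 2 h values that enter this contrast, which favours a difference in them.

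Tnfrsf11b and Qrfprl were up at 2 h and not at 6 h. Tnfrsf11b had an effect of -0.25 at 6 h and 1.04 at 2 h, a difference of -1.29 ± 0.16 (limma adjusted p = 0.0113). Qrfprl had an effect of -0.07 at 6 h and 0.67 at 2 h (-0.75 ± 0.11, limma adjusted p = 0.0203). Jun had a larger effect at the later time, 1.72 at 6 h and 0.79 at 2 h (0.92 ± 0.14, limma adjusted p = 0.0203). For Fos the effect was 3.71 at 6 h and 2.44 at 2 h, and the difference of 1.27 ± 0.48 did not pass (limma adjusted p = 0.35).

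Zbtb16 and Fam43a had opposite signs at the 2 times and passed at both. Zbtb16 had an effect of 0.50 at 6 h and -0.66 at 2 h (1.16 ± 0.13, limma adjusted p = 0.00982), and Fam43a of 0.37 at 6 h and -0.70 at 2 h (1.07 ± 0.14, limma adjusted p = 0.0113). Hes1 had an effect of 0.14 at 6 h and -0.59 at 2 h (0.73 ± 0.11, limma adjusted p = 0.0203). Zfp189, a zinc finger gene, had 0.65 at 6 h and -0.94 at 2 h, and Il6r, the interleukin-6 receptor, 0.65 at 6 h and -0.56 at 2 h. Neither passed at 2 h alone, while both passed the test of the difference (limma adjusted p = 0.0379 and 0.0141). Fkbp5 had an effect of -0.10 at 6 h and -0.81 at 2 h, and the difference of 0.71 ± 0.14 did not pass (limma adjusted p = 0.0747).

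Mt1, a metallothionein that binds zinc, had an effect of 1.93 at 6 h and -0.05 at 2 h (1.98 ± 0.26, limma adjusted p = 0.0133). Gadd45b, a stress gene of growth arrest, had 2.46 at 6 h and 0.37 at 2 h, where the groups were already separate. Osmr, the oncostatin M receptor, had 2.05 at 6 h and 0.22 at 2 h. In the other direction, Slco1a4, an organic anion transporter of brain endothelium, had -1.90 at 6 h and 0.02 at 2 h (-1.92 ± 0.23, limma adjusted p = 0.0103), and Abcb1a, the P-glycoprotein pump, -1.08 at 6 h and -0.07 at 2 h. For 3 of the 14 barrier transporters the occlusion effect was lower at 6 h than at 2 h by this test. None of the 363 microRNA genes passed it.

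**Figure D5:**
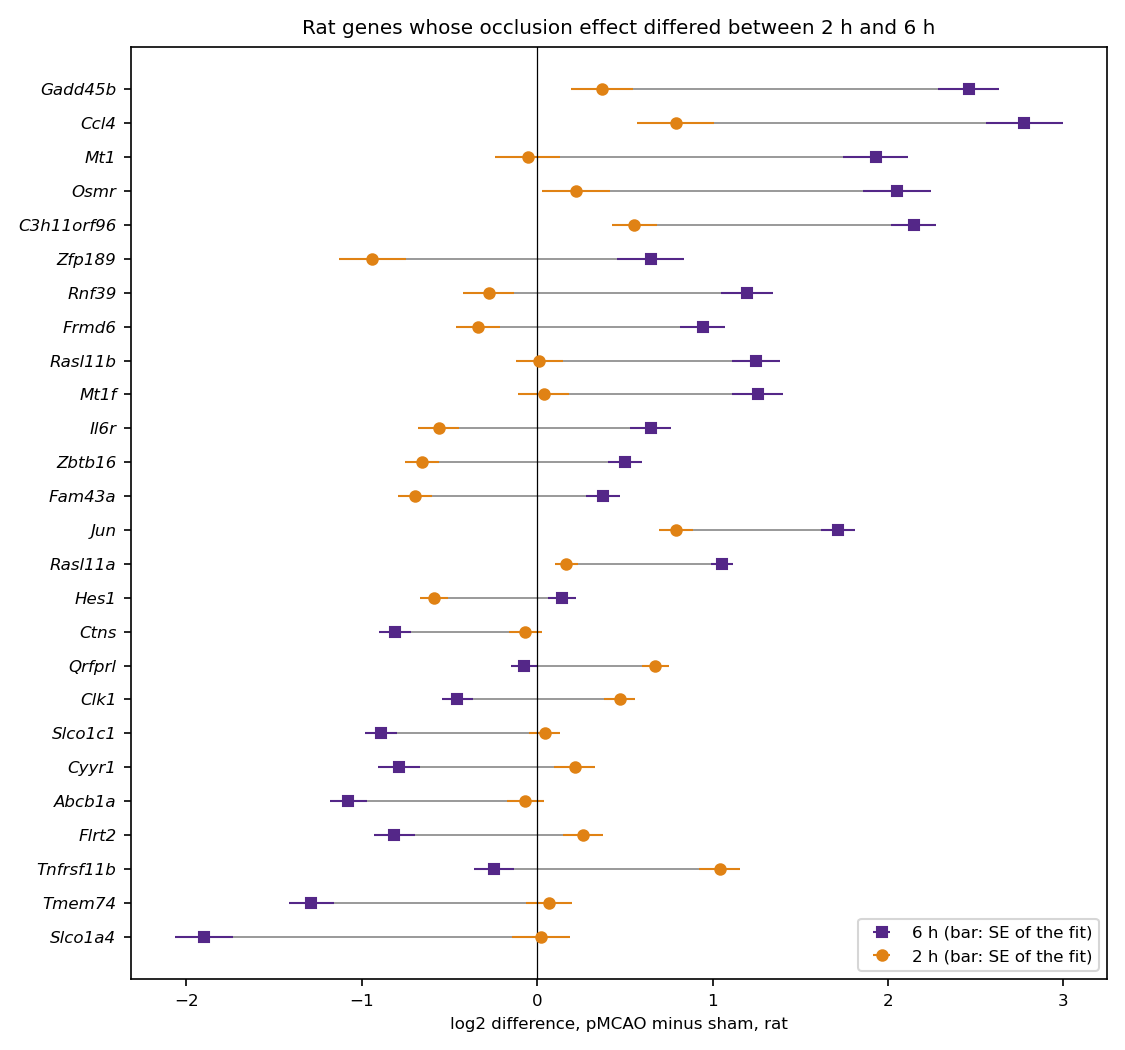
Log2 difference, pMCAO minus sham, in rat at 6 h (purple squares) and 2 h (orange circles) with the SE of the fit, for the named genes whose effect differed between the times. Zbtb16, Fam43a, Zfp189 and Il6r lie right of 0 at 6 h and left of 0 at 2 h, and Slco1a4 is at -1.90 at 6 h and near 0 at 2 h.

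Mice sampled at 2 h were set against the rats over 14193 symbols shared by the tables. The effect differed for 2 genes (0.0141%), both higher in rat, and for none without 2 h pMCAO replicate 3, sham replicate 2 or sham replicate 3 of the rats (692, 612 and 422 at an unadjusted p under 0.05). Tnfrsf11b had an effect of 1.04 in rat and 0.02 in mouse, a difference of 1.02 ± 0.14 (adjusted p = 0.00507 on the limma fits), and read 5.90, 5.95 and 5.90 in pMCAO mice and 5.98, 5.97 and 5.73 in sham mice. Plat had 0.94 in rat and 0.06 in mouse (0.88 ± 0.15, adjusted p = 0.0448 on the limma fits), a call lost in 9 of 12 leave-one-out fits (adjusted p up to 0.23), under median centring (0.0547), under quantile normalization (0.0621) and with a replicate block (0.085). It read 8.38, 8.62 and 8.33 in pMCAO mice and 8.33, 8.36 and 8.47 in sham mice. The species also differ in strain, the side occluded and the array, which cannot be told apart from species here.

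Of the 12 rat calls, all with a mouse gene of the same symbol, 5 changed the same way in mouse at 2 h: Fos, Jun, Ccn1, Fkbp5 and Mir376a. Their mouse effects were 1.80 ± 0.23, 1.35 ± 0.13, 1.64 ± 0.15, -0.58 ± 0.10 and -1.11 ± 0.18, with limma adjusted p-values of 0.00704, 0.000899, 0.0006, 0.0309 and 0.0309. In mouse 66 of 22180 genes passed (0.298%). Npas4, which missed the threshold in rat, rose in mouse by 3.08 ± 0.26 (limma adjusted p = 0.000506).

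Of 204 microRNA genes named alike in both tables, 63 lay below every sham animal in rat and 63 in mouse, and 41 did so in both (65.1% of each). Most of the 204 thus overlapped with the shams, and the medians were -0.06 in rat and -0.10 in mouse. In the Dlk1-Dio3 list 29 are named alike, of which 24 lay below in rat and 25 in mouse, with 21 in both (87.5% and 84%), and the medians were -0.98 in rat and -0.85 in mouse. In mouse 99 of 483 microRNA genes were below every sham animal, against 8.39% of all mouse genes, and 25 were above, against 6.24%.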

How the data were processed

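RNA of 24 animals was measured on whole-transcript arrays, 1 animal per array, n = 3 per group. What the authors deposited is 1 table of log2 values for rat and 1 for mouse, rounded to 2 decimals. oligo and limma are the tools named per the submitters' processing notes, and no source used here gives the normalization or the genome build. Sample titles gave the groups and the replicate numbers. Rat symbols are those of the platform annotation: 18511 clusters had 1 symbol, 575 several and 17599 none. Group means were fitted to the 12 rat arrays (8 residual degrees of freedom) by limma 3.58.1 under R 4.3.3 with eBayes, two-sided, with Benjamini-Hochberg adjustment over all 18166 genes and a threshold of 0.05. The number of arrays limits the precision, and an exact permutation test of 3 against 3 cannot go below 0.1. For the species difference the degrees of freedom of both limma fits were combined by Satterthwaite's formula. The fits were tested on simulated data, where the species difference gave more false calls than its threshold allows.

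The comparison, its 25 pathway lists and 16 cell type lists (723 genes, 645 measured in rat) and the naming rule were chosen with earlier results of these data known. The rule named all genes that passed, the 12 highest and lowest separated differences, the 12 smallest p-values each way, up to 5 members per list by t plus the largest difference, and up to 10 and 8 each way that passed for time and species. Outside the lists it left out symbols of genes with no described function, and microRNA genes except where they passed or were listed. The rule also left out symbols that start like those of olfactory receptors, among them Olr1, which differed by 1.04. Between any 2 of the 12 rat arrays, at most 2.49% of clusters had equal values. Same-numbered pMCAO and sham animals deviated together for replicate 2 and not for 1 and 3. This cannot settle whether the replicate numbers pair the samples, and no block was used in the main fit.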

Additional observations from a re-analysis of the deposited data

Results flagged for a closer look

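The occlusion effect differed between 6 h and 2 h in rat, by the interaction term of the limma fit, for 26 of the named genes. The differences, 6 h minus 2 h on the log2 scale, were 2.09 for Gadd45b, 1.99 for Ccl4, 1.98 for Mt1, 1.83 for Osmr, 1.59 for C3h11orf96, 1.59 for Zfp189, 1.47 for Rnf39, 1.28 for Frmd6, 1.23 for Rasl11b, 1.22 for Mt1f, 1.21 for Il6r, 1.16 for Zbtb16, 1.07 for Fam43a, 0.92 for Jun, 0.89 for Rasl11a and 0.73 for Hes1. They were -0.74 for Ctns, -0.75 for Qrfprl, -0.93 for Clk1, -0.93 for Slco1c1, -1 for Cyyr1, -1.01 for Abcb1a, -1.07 for Flrt2, -1.29 for Tnfrsf11b, -1.35 for Tmem74 and -1.92 for Slco1a4. Clk1, a kinase of splicing factors, had an effect of -0.46 at 6 h and 0.47 at 2 h.

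Between species at 2 h, the effect in rat minus that in mouse was 1.02 for Tnfrsf11b and 0.88 for Plat, by the test of the difference. The groups hold 3 animals each, so no group was tested for a single outlying animal.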

How the results depend on the processing

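Of 12 calls at 2 h, leaving out 1 array of the 2 h or 6 h groups gave 0 to 58, and leaving out the 2 h arrays alone 0 to 16. The count was 44 with the 6 arrays at 2 h alone and 0 in that fit without microRNA genes, 2 with a replicate block, 28 with trend and robust eBayes, 65 with array weights, 4 over all transcript clusters and 0 with a fold limit of 0.5 on the log2 scale (59 at an unadjusted p under 0.05). It was 10 under quantile normalization, 12 under median centring, 15 without the dimmest 25% of genes and 11 with clusters averaged. Of 42 changes between times, leave-one-out gave 11 to 140, the replicate block 4, trend and robust eBayes 121, array weights 82, leaving out the dimmest 25% 87, all clusters 7 and the fold limit 0 (97 unadjusted). Of 2 species differences, leave-one-out gave 0 to 3, the block 1, array weights 4, quantile normalization 1 and median centring 1. Why the counts moved was not tested. Median centring gave 1441 genes above and 1066 below every sham animal, and quantile normalization 1217 and 1341. Same-numbered pMCAO and sham deviations correlated at 0.03, 0.33 and -0.02, and whether the numbers mark shared handling is not known. No sign changed for the named genes refitted under the settings, 101 at 2 h, 25 for the change between times and 2 between species, of 229 named by the rule. The files give no detection calls, so dim signals such as that of Mir376a have no stated limit.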

Other observations

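Genes with symbols of olfactory receptors, a family of receptors of the nasal epithelium whose signals in brain are dim, were more often above than below the shams. This set was taken by the first letters of the symbol, after its values were seen. Of 1185 such genes, limma called none, 89 had an unadjusted p under 0.05 (7.51%, against 7.08% of all genes), 86 of them higher, every pMCAO animal was above every sham animal in 113 (9.54%, against 5.54% of all genes) and below in 13 (1.1%), and the median was 0.12. Their mean signal was 4.85, 5.08 and 4.85 in pMCAO animals and 4.80, 4.86 and 4.77 in sham animals, so pMCAO replicate 2 alone exceeded every sham animal. Or2y11 read 5.87, 6.44 and 6.13 in pMCAO animals and 5.30, 5.30 and 5.38 in sham animals (0.82 ± 0.13, limma adjusted p = 0.0504). The largest difference of the set, 1.04, was that of Olr1 (limma adjusted p = 0.297), whose symbol may stand for a gene of another kind. The naming rule left Olr1 out by its first letters. The fit of the 2 h arrays alone called it (limma adjusted p = 0.01495).

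Among clock genes, Bhlhe40, a repressor that also responds to hypoxia, read 10.38, 10.84 and 10.44 in pMCAO animals and 11.08, 10.84 and 10.91 in sham animals. Of 17 clock genes limma called none (5 at an unadjusted p under 0.05, 4 of them lower), and 3 lay below every sham animal. Kcnj2, an inward rectifier potassium channel, read 7.18, 7.63 and 7.31 in pMCAO animals and 6.93, 6.98 and 6.75 in sham animals (0.49 ± 0.14). Of 8 markers of oligodendrocyte precursors 2 lay below every sham animal, among them Gpr17, a receptor of these cells, at 9.29, 9.13 and 9.19 in pMCAO animals and 9.43, 9.46 and 9.42 in sham animals.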
